A study of Mus musculus with 12 samples.

Results

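The data described here are 6 whole-lung transcriptomes of newborn mice, 3 from wild type pups (WT, Man1a2+/+) and 3 from null pups (Man1a2-/-), out of 12 libraries of liver and lung from these genotypes. The null allele, Man1a2tm1.1Ahe, lacks exon 2 of the gene, and pups of both genotypes were bred from Man1a2+/- mice of a Jackson Labs line. Pups were killed within the first hour after birth and given no agent that the labels name, and the deposited values are whole numbers of sequencing reads per gene. The libraries compared were chosen by measured values: null lung 1 held little *Sftpc* and much *Nppa* and *Acta1*, given here only as a description, so null lungs 2 and 3 were compared with the 3 WT lungs, and the fit of all 6 libraries is given beside it.

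*Man1a2* encodes a Golgi mannosidase that cuts mannose off N-linked sugar chains on secreted and membrane proteins, a step before complex glycans are built. At birth the lung clears its liquid and begins gas exchange. Flat alveolar type 1 cells form most of the gas exchange surface, type 2 cells make surfactant, and secretory and multiciliated cells line the airways. Glucocorticoids from the fetal adrenal are known to drive late lung maturation, and most lung cells also carry a circadian clock whose repressors include the REV-ERB proteins.

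Total counts ranged from 26759463 to 42914295 per library, so 3 reads, the smallest level taken as measurable in a single library, stood at 0.0699 to 0.112 CPM (counts scaled to library size). Log2 values of null lung 1 correlated with those of the other lungs at r = 0.839 to 0.860 across genes. The others correlated with each other at 0.965 to 0.994. Surfactant gene *Sftpc* stood at 20299, 16331 and 16129 CPM in the WT lungs, 22458 and 15725 in null lungs 2 and 3, and 35.3 in null lung 1. The atrial peptide gene *Nppa* stood at 4.21, 1.07 and 1.07 CPM in the WT lungs, 1.54 and 1.73 in null lungs 2 and 3 and 7927 in null lung 1. Skeletal actin *Acta1* stood at 7.65, 5.62 and 9.95 CPM in the WT lungs, 8.56 and 9.84 in null lungs 2 and 3 and 5075 in null lung 1. Null lung 1 also held much thyroglobulin RNA (*Tg*, 2666 CPM against 1.25 to 4.13 elsewhere) and much *Krt15* RNA of basal epithelium (1029 CPM against 11.1 to 21.4). Without *Sftpc*, the other 18 type 2 markers summed to 513 CPM of total counts in that library and to 15185 to 16997 CPM in the other 5, and the 16 type 1 markers to 2225 CPM and to 7020 to 11913 CPM. In null lungs 2 and 3, the 18 cardiac muscle markers summed to 986 to 1194 CPM, above the 487 to 788 CPM of the WT lungs, and the 18 skeletal muscle markers to 65.8 to 78.9 CPM, above 31.9 to 39.2 CPM. *Xist* was high in WT lung 1, null lung 1 and null lung 2 and the Y-linked *Ddx3y* in the other 3 libraries, so both sexes were present in each group of the 5-library comparison. In whole tissue, fewer cells of a type and less RNA per cell cannot be told apart.

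**Figure D1:**
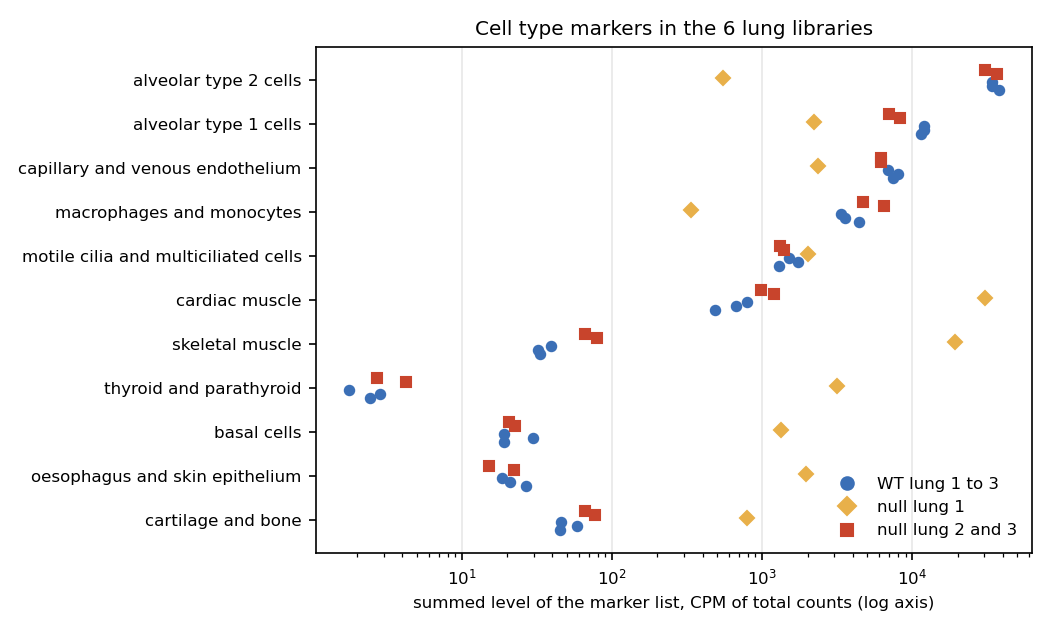
Summed level of 11 cell type marker lists in each lung library (x axis, CPM of total counts, log axis), with 1 point per library. Null lung 1 lies far below the other 5 libraries for type 2 cells (548 CPM) and far above them for cardiac muscle, skeletal muscle and thyroid markers.

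*Man1a2* itself stood at 137, 99.5 and 141 CPM in the WT lungs, 64.3 and 66.3 CPM in null lungs 2 and 3 and 56.7 CPM in null lung 1. All 3 null lungs lay below all 3 WT lungs. The log2 fold change, given here and below with its standard error for 2 null and 3 WT lungs, was -0.95 ± 0.16, adjusted p = 0.0043 by edgeR, without null lung 1, and -1.01 (adjusted p = 0.0614) with it. An exact permutation test of log2(CPM + 0.5), two-sided, gave p = 0.2 for 2 against 3 libraries and p = 0.1 for 3 against 3, in both cases the smallest p that the design allows. Counts per gene do not show exon 2, so the deletion itself was not checked by them. The gene lies on the minus strand of chromosome 3 from 100562208 to 100685503 in GENCODE M21 (GRCm38).

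Among 15 enzymes that trim mannose or glucose from N-glycans, 3 were higher and 4 lower in the null lungs. This is 46.7% of the list beside 37.0% of all 15885 genes tested, and the targeted gene *Man1a2* itself is 1 of the 4. The related Golgi mannosidase gene *Man1a* rose, from 52.4, 51.0 and 54.7 CPM to 96.8 and 65.1 CPM (log2 fold change 0.62 ± 0.16), with 57.4 CPM in null lung 1. Its call was lost in 4 of the 5 fits without 1 library and kept without null lung 3, at log2 fold changes of 0.31 to 0.89. *Man2a2* and *Man2a1*, whose products act after the first branch is added, rose by 0.83 and 0.39 on the log2 scale. The third Golgi enzyme of this class, *Man1c1*, did not pass (0.21 ± 0.12, adjusted p = 0.21). *Mogs*, the glucosidase that starts trimming, fell from 41.8, 42.4 and 41.6 to 28.8 and 21.5 CPM, with 24.3 CPM in null lung 1. The endoplasmic reticulum mannosidase *Man1b1* and *Edem2*, which marks misfolded glycoproteins for degradation, fell by 0.40 and 0.43 on the log2 scale, and both calls were lost in 4 of those 5 fits. Of 21 genes for branching and capping of N-glycans, 4 were higher and 7 lower, beside 18.0% and 19% of all genes. *Mgat2*, which adds the second branch, fell from 103, 96.7 and 99.4 to 68.8 and 64.0 CPM with 69.7 CPM in null lung 1, and the core fucosyltransferase *Fut8* fell by 0.54 on the log2 scale. The galactosyltransferase *B4galt4* (-0.82 ± 0.11) and *Mgat3* (-0.84 ± 0.21), which adds the bisecting residue, also fell, and *Mgat4a*, a branching enzyme, rose (0.59 ± 0.12).

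In the 5-library fit 5881 genes were called, 2860 of them (18.0% of genes tested) higher and 3021 (19%) lower in the null lungs. A gene was called where its adjusted p was under 0.05 and the groups differed 1.2-fold or more. Of these, 735 were at least 2-fold higher and 1095 at least 2-fold lower. In the fit of all 6 libraries 51 genes were called (0.327%), 14 higher (0.0898%) and 37 lower (0.237%), and all 51 were also called without null lung 1. Of the 5881 genes, 3616 had null lung 1 on the same side of all 3 WT lungs as null lungs 2 and 3, and over all genes tested 35.8% had the 3 null lungs entirely above or below the WT lungs. The p-values of the 5-library fit depend on leaving out null lung 1 by its own values, and the labels do not say which pups were littermates.

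The 10 largest rises included 3 genes of airway secretion and 2 that respond to glucocorticoids or belong to the clock. *Reg3g*, an antimicrobial lectin of airway and gut epithelium, stood at 2.99, 0.936 and 7.43 CPM in the WT lungs and 60.0 and 68.4 CPM in null lungs 2 and 3. The secretoglobin gene *Scgb3a1* rose from 7.98, 2.11 and 8.33 CPM to 70.3 and 75.6 CPM, and *Muc5b*, a gel-forming mucin, from 1.68, 0.485 and 0.870 CPM to 5.12 and 12.6 CPM. Their log2 fold changes were 4.07 ± 0.59, 3.55 ± 0.44 and 3.09 ± 0.52, and in null lung 1 they stood far higher still, at 1376, 1813 and 601 CPM. *Dio2*, the deiodinase that activates thyroid hormone, had the largest rise (4.35 ± 0.64). It stood at 0.936, 1.18 and 0.812 CPM in the WT lungs and at 6.19 and 33.4 CPM in null lungs 2 and 3, which lay far apart, and at 33.8 CPM in null lung 1. Without null lung 3 its log2 fold change was 2.69. *Zbtb16*, a zinc finger repressor known to respond to glucocorticoids, rose from 50.3, 13.5 and 17.7 to 187 and 304 CPM (3.17 ± 0.51) and stood at 106 CPM in null lung 1. The tendon homeobox gene *Mkx* (2.94 ± 0.29), the incretin receptor *Gipr* (2.84 ± 0.32), the exocytosis calcium sensor *Doc2b* (3.02 ± 0.47) and *Rgs1*, a regulator of G protein signalling (3.63 ± 0.96), complete the 10 largest rises together with *Nr1d1*, which is described with the clock. *Rgs1* was low throughout, at 0.164, 0.693 and 0.783 CPM in WT and 1.02 and 12.2 CPM in null lungs 2 and 3, and it was not called in 4 of the 5 fits without 1 library, with a log2 fold change of 0.95 without null lung 3 and 4.52 without null lung 2, where it was called. *Gipr* and *Nr1d1* were also called in the fit of all 6 libraries.

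The 10 largest falls included 2 Wnt ligand genes and an arterial gene. *Gja5*, connexin 40 of arterial endothelium, stood at 57.1, 53.1 and 76.2 CPM in the WT lungs and 4.70 and 4.26 CPM in null lungs 2 and 3 (-3.79 ± 0.20, adjusted p = 0.000319). Null lung 1 had 40.6 CPM, below the WT lungs but near them. The Wnt ligand genes *Wnt3a* and *Wnt7a* both fell. *Wnt3a* went from 19.8, 19.7 and 16.9 CPM to 1.96 and 2.41 CPM (-3.10 ± 0.19) and stood at 0.644 CPM in null lung 1. *Wnt7a* went from 16.9, 14.6 and 16.8 CPM to 1.70 and 2.12 CPM (-3.07 ± 0.20) and stood at 0.493 CPM there. The rule that chose both genes took only those with all 3 null lungs outside the WT range. *Cemip*, which takes part in breaking down hyaluronan, fell from 33.7, 29.2 and 48.4 CPM to 2.90 and 2.56 CPM, and the secreted matrix protein gene *Spon2* from 54.7, 70.7 and 50.3 CPM to 9.95 and 6.31 CPM. *Cyp1a1*, the classical target of the aryl hydrocarbon receptor, was at 2.13, 8.81 and 2.29 CPM in WT and at 0.235 and 0.244 CPM in null lungs 2 and 3 (-4.17 ± 0.81). *Tnfaip8l3* (-3.13 ± 0.38), *Hdhd3* (-2.93 ± 0.34) and the delta-tubulin gene *Tubd1* (-2.73 ± 0.21) fell as well, and *Cemip* and *Hdhd3* were also called in the fit of all 6 libraries. *Gja5* lies on chromosome 3, 3.48 Mb from *Man1a2* in GENCODE M21 on GRCm38.

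*Akap5*, which anchors protein kinase A and is a marker of type 1 cells, was the most abundant of these 10, and fell from 508, 527 and 565 CPM to 75.8 and 62.3 CPM (-2.95 ± 0.13), with 3.75 CPM in null lung 1. Among other genes with a mean of at least 100 CPM in WT or null lungs, the largest falls were those of the paraspeckle RNA *Neat1* (294, 267 and 381 CPM in WT, 50.6 and 110.2 CPM in null lungs 2 and 3), the secreted factor gene *Ndnf* (258, 208 and 225 CPM in WT and 74.6 and 54.2 CPM in null lungs 2 and 3), the caveola gene *Prkcdbp* (126, 107 and 122 CPM in WT and 40 and 33.7 CPM in null lungs 2 and 3) and the dynein light chain gene *Dynll1* (189, 182 and 179 CPM in WT and 70.6 and 57.9 CPM in null lungs 2 and 3). *Trp53inp1* and *Sesn1*, both known targets of p53, rose from 111, 140.1 and 123 to 661 and 838 CPM and from 64.1, 51.1 and 45.5 to 247 and 297 CPM. The same rule chose these 7 genes.

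**Figure D2:**
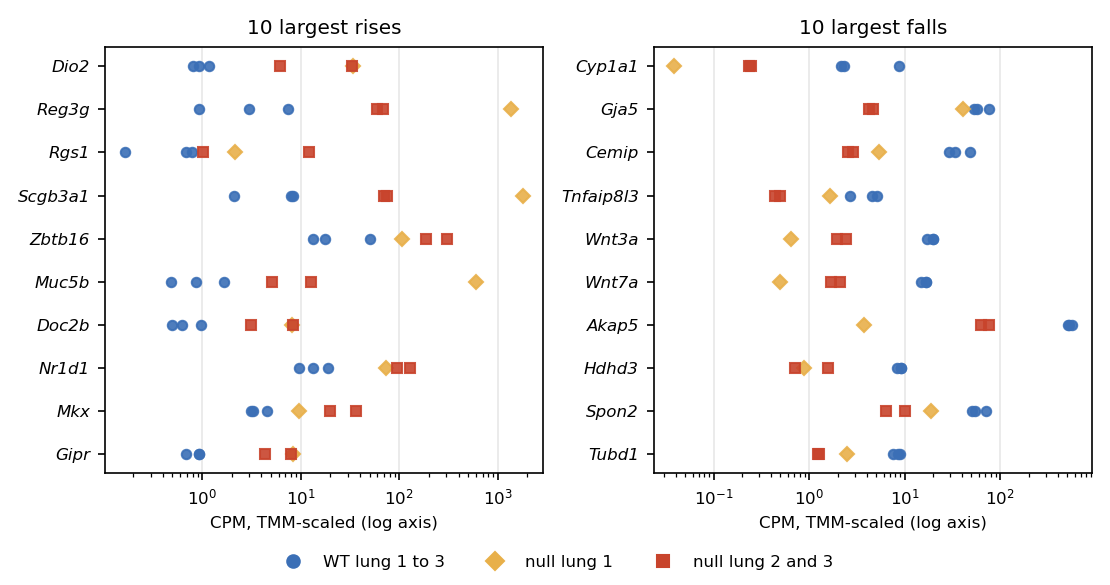
CPM (x axis, TMM-scaled, log axis) in each lung library for the 10 genes that rose most and the 10 that fell most, with 1 point per library. By the rule that chose these genes all 3 null libraries lie outside the WT range. Null lung 1 lies far above null lungs 2 and 3 for *Reg3g*, *Scgb3a1* and *Muc5b*, and near the WT lungs for *Gja5*.

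Of the 19 circadian clock genes 16 were called higher and 0 lower, with a median log2 fold change of 1.30 beside -0.01 over all genes. Over all genes 18.0% were called higher. With null lung 1 counted in, 12 of the 19 had all 3 null lungs above all 3 WT lungs, as did 16.5% of all genes tested. *Nr1d1* and *Nr1d2*, which encode the repressors REV-ERB alpha and beta, showed the largest changes. *Nr1d1* stood at 9.71, 13.2 and 18.7 CPM in the WT lungs, 128 and 93.9 CPM in null lungs 2 and 3 and 73.3 CPM in null lung 1 (3.0 ± 0.26, adjusted p = 0.000625). For *Nr1d2* the values were 36.4, 36.4 and 44.3 CPM, 174 and 169 CPM and 124 CPM in the same order (2.13 ± 0.12). Both were also called with all 6 libraries. *Arntl*, the activator that REV-ERB proteins are known to repress, also rose (0.84 ± 0.11), from 38.4, 41.5 and 44.7 CPM to 78.1 and 70.9 CPM, and null lung 1 lay just below the WT lungs at 37.0 CPM. Its partner *Clock* rose by 0.37 on the log2 scale, a call lost in 4 of the 5 fits without 1 library.

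Other repressor genes also rose. *Per1* stood at 211, 232 and 180.3 CPM in WT and 531 and 602 CPM in null lungs 2 and 3, with 260.5 CPM in null lung 1 (1.45 ± 0.13). *Cry2* (1.61 ± 0.16), *Per2* (0.67 ± 0.15), the small repressor gene *Ciart* (2.13 ± 0.20) and the basic helix-loop-helix repressors *Bhlhe40* (1.49 ± 0.12) and *Bhlhe41* (2.02 ± 0.30) rose too. *Bhlhe40* went from 28.5, 34.6 and 29.5 CPM to 92.7 and 81.0 CPM, stood at 72.9 CPM in null lung 1 and was called with all 6 libraries. Of the output factors, *Dbp* rose from 5.40, 3.99 and 3.80 to 11.6 and 20.5 CPM (1.86 ± 0.27), *Tef* by 0.84 and *Hlf* by 0.51 on the log2 scale, and their antagonist *Nfil3* by 1.40. The call of *Hlf* was lost in 4 of the 5 fits without 1 library. The activator *Rora*, which competes with REV-ERB proteins for the same sites, rose by 1.30. *Cry1*, *Npas2* and *Per3* were the 3 members not called, at log2 fold changes of 0.13 ± 0.12, 0.01 ± 0.23 and -0.02 ± 0.13. With all 6 libraries 3 members were called, *Nr1d1*, *Nr1d2* and *Bhlhe40*, and 13 had an unadjusted p under 0.05, while DESeq2 called 10 on those libraries. *Ciart* lies 4.68 Mb from *Man1a2* on chromosome 3.

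Promoter windows are shown to place the clock genes beside the E-box, the motif that the CLOCK and ARNTL proteins bind. RefSeq windows on GRCm38.p6 were searched over the 250 bases before each start site for CACGTG, which reads the same on both strands. Windows were found for 16 of the 19 clock genes. The motif was found in 6 of their 21 windows (28.6%), those of 5 genes, and in 1978 of 32851 windows of all genes (6.02%). It was also found in 5 of 20 windows of the FoxO and fasting list (25%) and in 4 of 28 of the glucocorticoid list (14.3%). The stretches below give the motif in capitals with up to 40 bases on each side, for 3 genes that rose and for *Cry1*, which was not called. *Ciart* lies on the minus strand at chr3:95882299-95882384 and holds 3 matches in its window, of which 1 is shown, and *Per1* is on the plus strand at chr11:69098743-69098828. A *Tef* window is on the plus strand at chr15:81811236-81811321, and that of *Cry1* on the minus strand at chr10:85185069-85185154.
Ciart: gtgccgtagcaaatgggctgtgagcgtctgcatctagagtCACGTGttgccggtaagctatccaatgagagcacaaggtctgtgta
Per1: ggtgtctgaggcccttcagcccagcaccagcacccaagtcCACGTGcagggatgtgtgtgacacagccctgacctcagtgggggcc
Tef: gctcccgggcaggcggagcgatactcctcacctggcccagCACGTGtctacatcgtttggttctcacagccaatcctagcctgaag
Cry1: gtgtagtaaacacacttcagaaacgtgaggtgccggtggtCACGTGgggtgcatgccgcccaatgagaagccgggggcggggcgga
None of these 4 stretches overlaps an annotated exon. A match is a description of the letters and not a bound site.

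Genes of the glucocorticoid response were higher in 18 of 23 cases and lower in 2, with a median log2 fold change of 1.09. Over all genes 18.0% were called higher. Of the 23, 11 had all 3 null lungs above and 2 all 3 below the WT range, beside 16.5% and 19.4% of all genes. Besides *Zbtb16*, the cell cycle inhibitor gene *Cdkn1a* rose from 176, 176 and 167 CPM to 614 and 599 CPM (1.81 ± 0.09, adjusted p = 0.000319), with 226 CPM in null lung 1. *Errfi1*, an inhibitor of the EGF receptor, rose from 329, 419 and 413 to 1164 and 1199 CPM but stood at 124 CPM in null lung 1. *Glul*, glutamine synthetase, rose from 572, 455 and 561 to 1339 and 1664 CPM, and null lung 1 overlapped the WT lungs. The receptor co-chaperone gene *Fkbp5* varied within both groups, at 181, 87.7 and 130.3 CPM in WT and 291 and 455 CPM in null lungs 2 and 3 (1.49 ± 0.29). *Tsc22d3*, which encodes the glucocorticoid-induced leucine zipper, stood at 257, 212 and 228 CPM in WT and 347 and 571 CPM in null lungs 2 and 3 (0.98 ± 0.20), and the transcription factor gene *Klf9* at 168, 180.2 and 170.3 CPM in WT and 466 and 425 CPM in null lungs 2 and 3 (1.37 ± 0.10). *Sgk1*, a kinase that raises sodium channel activity, rose by 1.23 on the log2 scale. The members that fell were *Angptl4*, an inhibitor of lipoprotein lipase (-0.86 ± 0.20), and *Lcn2*, which binds bacterial siderophores (-0.56 ± 0.17), a call lost in 4 of the 5 fits without 1 library. No member was called with all 6 libraries by edgeR, where 12 had an unadjusted p under 0.05, and DESeq2 called 10 higher on the same libraries.

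The palindrome of the glucocorticoid response element, AGAACA and TGTTCT with any 3 bases between them, was searched on both strands of the same windows, since the list is named for the receptor that binds it. It was found in 3 of 32851 windows of all genes (0.00913%), and in 1 of the 28 windows of the 18 list members that matched, that of *Sgk1*, on the plus strand at chr10:21993661-21993755. The match is in capitals.
Sgk1: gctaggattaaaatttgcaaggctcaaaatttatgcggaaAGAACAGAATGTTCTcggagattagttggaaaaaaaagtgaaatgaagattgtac

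Targets of FoxO factors, which also respond to fasting, were higher in 13 of 20 cases and lower in 0, with a median of 1.14. All genes gave 18.0% higher and 19% lower. *Sesn1*, of this list, is among the leading rises. The list shares 3 members, *Pdk4*, *Ddit4* and *Foxo3*, with the glucocorticoid list, and that list shares *Per1* with the clock list. *Txnip*, which restrains glucose uptake, stood at 1250.2, 1405 and 1627 CPM in the WT lungs, 4089 and 4613 CPM in null lungs 2 and 3 and 1308 CPM in null lung 1. Null lungs 2 and 3 lay above all WT lungs and null lung 1 among them (1.61 ± 0.13). *Txnip* lies 4.0 Mb from *Man1a2* on chromosome 3. *Klf15*, a regulator of amino acid use in fasting, rose from 69.8, 52.8 and 55.7 to 219 and 211 CPM (1.86 ± 0.13), and *Fbxo32*, a ubiquitin ligase of muscle wasting, from 22.9, 17.3 and 18.2 to 64.9 and 69.4 CPM (1.78 ± 0.14), with 104 CPM in null lung 1, the library with most muscle RNA. *Pdk4*, which holds back glucose oxidation (1.47 ± 0.26), *Ddit4*, an inhibitor of mTORC1 (1.48 ± 0.27), and *Foxo1* itself (1.21 ± 0.13) also rose. *Sesn1* and *Fbxo32* were the 2 members called with all 6 libraries, on which DESeq2 called 9.

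**Figure D3:**
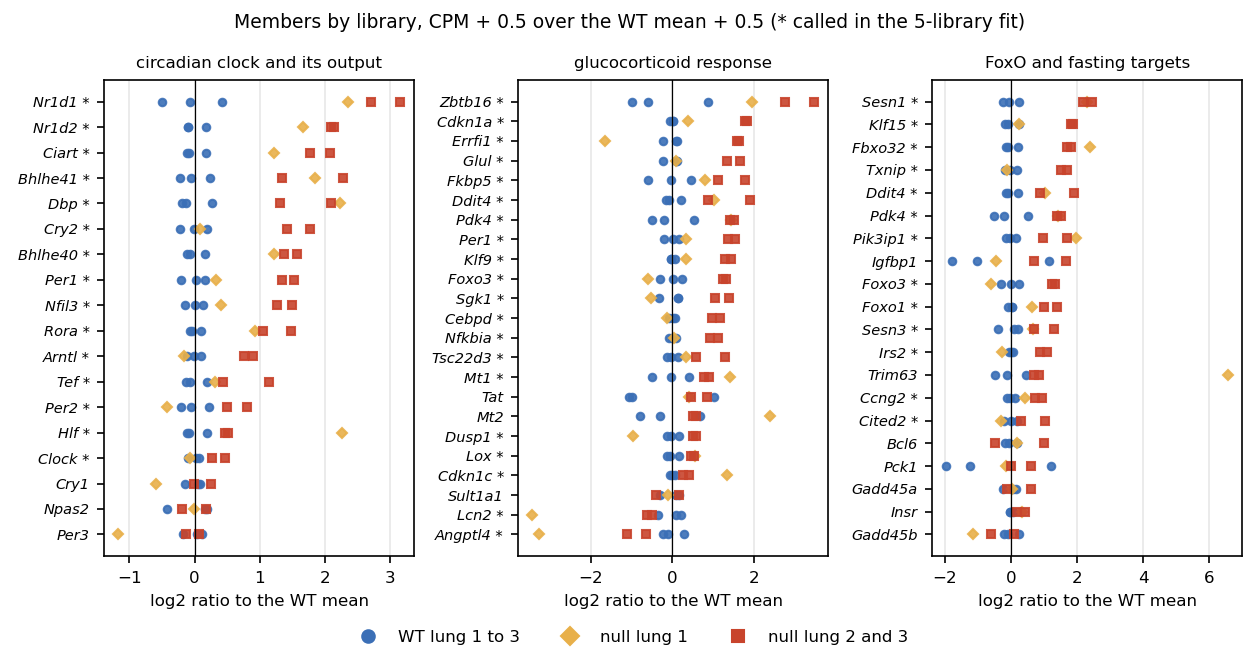
Members of the clock (1 not shown), glucocorticoid and FoxO lists in each lung library, as the log2 ratio of CPM + 0.5 to the WT mean + 0.5 (x axis), with 1 point per library and an asterisk for called genes. Null lungs 2 and 3 lie to the right of the WT lungs for most members, and null lung 1 lies between them for many.

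Alveolar type 1 markers were lower in 10 of 16 cases and higher in 0, with a median log2 fold change of -0.73. Over all genes 19% were called lower. Null lung 1, low in the markers of both alveolar cell types, was not counted here. Besides *Akap5*, the largest falls were those of *Rtkn2*, which encodes rhotekin 2, from 116, 127 and 128 CPM to 44.0 and 47.3 CPM (-1.44 ± 0.10), and of the guidance factor gene *Sema3a*, from 94.7, 121 and 108 to 54.7 and 26.8 CPM (-1.41 ± 0.28). Podoplanin, *Pdpn*, of the type 1 cell membrane, fell from 107, 109 and 105 CPM to 50.9 and 39.3 CPM (-1.25 ± 0.13), and *Hopx*, an early gene of the type 1 fate, from 468, 494 and 487 CPM to 296 and 293 CPM (-0.71 ± 0.09). Other defining markers were not called. *Ager*, the receptor for advanced glycation end products, stood at 1502, 1451 and 1389 CPM in WT and 1777 and 1272 CPM in null lungs 2 and 3 (0.08 ± 0.14), the water channel gene *Aqp5* at 364, 357 and 369 CPM in WT and 307 and 386 CPM in null lungs 2 and 3 (-0.07 ± 0.12), and caveolin *Cav1* at 1277, 1616 and 1416 CPM in WT and 1454 and 879 CPM in null lungs 2 and 3 (-0.30 ± 0.21). In these 3 genes null lungs 2 and 3 lay on both sides of the WT mean. With all 6 libraries edgeR called 0 members, 6 had an unadjusted p under 0.05, and DESeq2 called 6 lower.

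Type 2 markers were called in both directions, 4 of 19 higher and 4 lower, with a median of 0.02, beside 18.0% and 19% of all genes. The choice of libraries rested on *Sftpc*, a member of this list. Among the surfactant proteins, *Sftpa1* rose from 2165, 2022 and 2076 CPM to 2914 and 2921 CPM (0.48 ± 0.09). *Sftpb* stood at 3006, 3002 and 2839 CPM in WT and 3630.0 and 3320.5 CPM in null lungs 2 and 3 (0.24 ± 0.09) and *Sftpd* at 1174, 1074 and 1273 CPM in WT and 945 and 957 CPM in null lungs 2 and 3 (-0.30 ± 0.11), neither called. The surfactant lipid transporter gene *Abca3* was at 604, 710.3 and 559.8 CPM in WT and at 661 and 423 CPM in null lungs 2 and 3. *Cebpa*, a transcription factor of mature type 2 cells, rose from 213, 170.0 and 192 to 376 and 363 CPM (0.95 ± 0.12), and *Egfl6* by 0.61 on the log2 scale. The phosphate transporter gene *Slc34a2* (-0.36 ± 0.10), *Lpcat1*, an enzyme of surfactant phospholipid synthesis (-0.35 ± 0.11), and the anion transporter gene *Slc26a9* (-0.83 ± 0.15) fell. The call of *Lpcat1* was lost in 4 of the 5 fits without 1 library. With null lung 1 in the fit the sign of *Sftpa1* changed (-0.10).

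**Figure D4:**
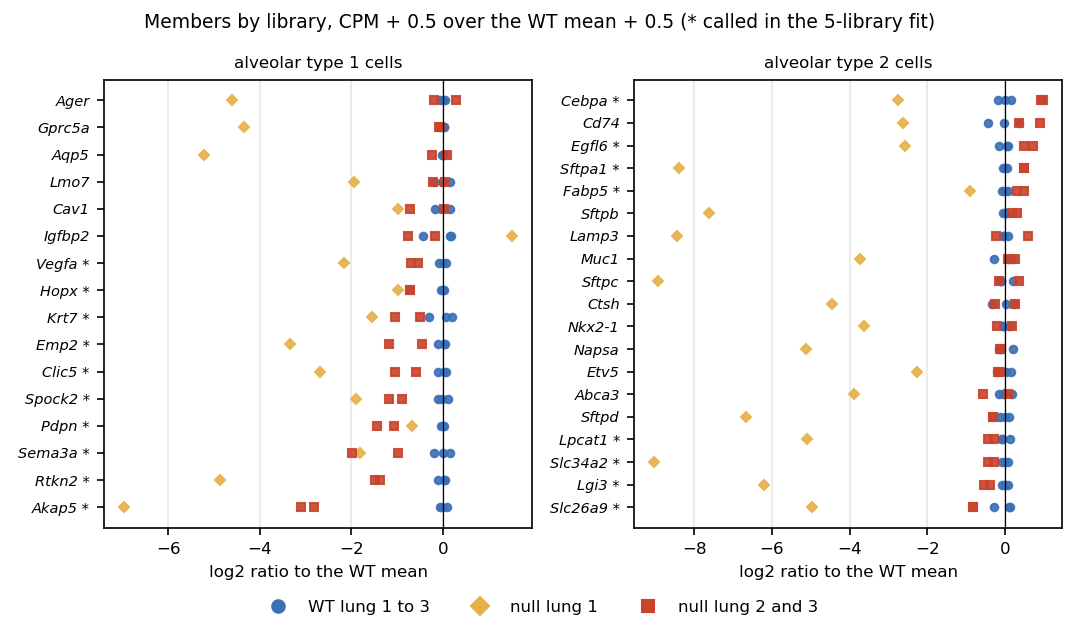
Members of the alveolar type 1 and type 2 lists in each lung library, as the log2 ratio of CPM + 0.5 to the WT mean + 0.5 (x axis), with 1 point per library and an asterisk for called genes. Null lungs 2 and 3 lie to the left of the WT lungs for 10 called type 1 markers, from *Vegfa* to *Akap5*, and near them for most type 2 markers, while null lung 1 is low for nearly all.

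Transport genes that clear lung liquid changed in both directions, with 5 of 25 higher and 7 lower, beside 18.0% and 19% of all genes. Subunits of the epithelial sodium channel differed. *Scnn1a* stood at 571, 552 and 518 CPM in WT and 637 and 502 CPM in null lungs 2 and 3 (0.06 ± 0.12), *Scnn1b* fell from 90.4, 121 and 99.0 to 35.1 and 37.7 CPM (-1.51 ± 0.15, adjusted p = 0.000814), and *Scnn1g* fell less (-0.42 ± 0.12), a call lost in 4 of the 5 fits without 1 library. *Atp1b1*, a subunit of the sodium pump, rose from 871, 938 and 994 CPM to 1436 and 1707 CPM (0.75 ± 0.11), and *Nedd4l*, the ubiquitin ligase that removes the sodium channel, rose by 1.03 on the log2 scale. The chloride channel gene *Ano1* fell from 165, 182 and 210.1 to 92.6 and 62.6 CPM (-1.26 ± 0.19). *Hsd11b2*, which inactivates corticosterone, was low and fell, from 1.90, 1.87 and 1.48 to 0.653 and 0.560 CPM (-1.52 ± 0.30).

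Airway secretory markers were higher in 5 of 11 cases and lower in 1, beside 18.0% and 19% of all genes, with a median log2 fold change of 0.099. The summed level of the list overlapped, at 4600 to 6270 CPM in the WT lungs and 4583 to 6833 CPM in null lungs 2 and 3. Next to *Reg3g*, *Scgb3a1* and *Muc5b*, *Scgb3a2* rose from 873, 869 and 863 CPM to 2694 and 1367 CPM (1.23 ± 0.24) and the host defence gene *Bpifb1* from 0.328, 0.901 and 1.86 to 6.06 and 4.70 CPM (2.40 ± 0.55). The club cell marker *Scgb1a1* did not pass, at 2154, 2547 and 2171 CPM in WT and 2812 and 1985 CPM in null lungs 2 and 3 (0.07 ± 0.16).

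Genes of motile cilia were higher in 26 of 63 cases and lower in 2, beside 18.0% and 19% of all genes, with a median log2 fold change of 0.61. The median was 0.38 without WT lung 1. It was also 0.38 with the replicate number as a block, which is not a separate check. With null lung 1 left out, WT lung 1 was alone in its block and so was set aside there too. In 35 genes of the list all 3 null lungs lay above the WT range and in 1 below it, beside 16.5% and 19.4% of all genes. The outer arm dynein gene *Dnah5* rose from 3.35, 9.85 and 6.93 CPM to 22.3 and 17.3 CPM (1.57 ± 0.38). The inner arm dynein gene *Dnah6* rose from 5.90, 9.85 and 8.67 CPM to 25.8 and 21.5 CPM (1.54 ± 0.22). WT lung 1 was the lowest of the WT lungs for both. *Lrrc23*, of the radial spoke (1.60 ± 0.28), *Hydin*, of the central pair (1.47 ± 0.23), the adenylate kinase gene *Ak7* (1.52 ± 0.26) and *Dnah11*, another outer arm dynein (0.97 ± 0.27), rose. The call of *Dnah11* was lost in 3 of the 5 fits without 1 library. In the edgeR fit over lung and liver libraries it was not called (0.99, adjusted p = 0.0567). *Foxj1*, the main transcription factor of motile ciliogenesis, did not pass, at 37.8, 70.4 and 67.0 CPM in WT and 50.3 and 48.4 CPM in null lungs 2 and 3 (-0.24 ± 0.25). The summed level of the list did not follow the count, at 1289 to 1721 CPM in the WT lungs and 1307 to 1403 CPM in null lungs 2 and 3. It was highest, at 2006 CPM, in null lung 1, the library left out for its tissue. That library is part of the count of 35 genes above. The count of called members fell to 14 without null lung 2 and to 13 without WT lung 3.

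Of 50 genes of intraflagellar transport, the BBSome and primary cilia, 4 were higher and 10 lower, a share of 28.0% beside 37.0% of all genes. *Ttc21b*, of the retrograde train, fell from 18.4, 17.5 and 14.7 to 7.39 and 3.85 CPM (-1.58 ± 0.28) and *Invs*, inversin, from 11.4, 14.3 and 13.2 to 6.24 and 2.88 CPM (-1.51 ± 0.32). Within the BBSome, *Bbs4* rose (1.05 ± 0.16) and *Bbs7* fell (-1.04 ± 0.21). *Arl13b*, a GTPase of the ciliary membrane, stood at 26.9, 25.7 and 30.1 CPM in WT and 21.7 and 24.4 CPM in null lungs 2 and 3, and was not called (-0.26 ± 0.13, adjusted p = 0.15).

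Arterial endothelial genes gave 3 higher and 5 lower of 15, beside 18.0% and 19% of all genes, with *Gja5* first. The chemokine receptor gene *Cxcr4* fell from 55.2, 55.8 and 43.4 CPM to 13.8 and 16.2 CPM (-1.78 ± 0.16, adjusted p = 0.000654), and its ligand *Cxcl12* from 239, 341 and 288 CPM to 102 and 141 CPM (-1.25 ± 0.19). In both the 3 null lungs lay below the WT range. *Dkk2*, a secreted Wnt modulator, fell from 2.74, 4.71 and 2.96 to 0.809 and 0.487 CPM (-2.41 ± 0.38), but null lung 1 stood at 16.2 CPM, and its sign turned with all 6 libraries (0.74). The Notch target *Hey1* rose (0.81 ± 0.16).

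Capillary and venous genes gave 2 higher and 6 lower of 29 (27.6%), below the share of 37.0% over all genes. *Calcrl*, the receptor for adrenomedullin and calcitonin gene-related peptide, stood at 409.7, 647 and 551 CPM in WT and 136 and 254 CPM in null lungs 2 and 3 (-1.46 ± 0.29). Its accessory protein gene *Ramp2* fell from 334, 304 and 274 to 152 and 161 CPM (-0.96 ± 0.12) and the angiopoietin receptor gene *Tek* from 235, 275 and 216 to 121 and 140.3 CPM (-0.89 ± 0.14). Of genes found across endothelium, *Cdh5*, VE-cadherin, rose (0.59 ± 0.15), as did the sialomucin gene *Emcn* (0.90 ± 0.19), while *Pecam1* (0.17 ± 0.11) and the VEGF receptor gene *Kdr* (0.22 ± 0.25) did not pass.

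Fibroblast genes gave 3 higher and 6 lower of 20, beside 18.0% and 19% of all genes. *Meox2*, a homeobox gene of mesoderm, fell from 34.4, 54.2 and 61.5 CPM to 11.9 and 10.1 CPM (-2.19 ± 0.26), *Tcf21*, of lipofibroblasts, from 309, 252 and 298 CPM to 140.2 and 135 CPM (-1.06 ± 0.12), and *Wnt2*, a mesenchymal ligand, from 62.5, 71.7 and 64.8 to 41.4 and 28.3 CPM (-0.93 ± 0.17). The actin-binding protein gene *Limch1* fell by 0.79 on the log2 scale. Lumican, *Lum*, rose at a low level (3.39, 2.67 and 2.5 to 7.28 and 8.19 CPM) and stood at 451 CPM in null lung 1.

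Myofibroblast and smooth muscle genes were lower in 7 of 16 cases and higher in 2, with a median of -0.53. Over all genes, the background of each list here, 19% were called lower and 18.0% higher. The smooth muscle gene *Actg2* fell from 40.4, 52.1 and 31.9 to 15.1 and 13.5 CPM (-1.53 ± 0.21), calponin *Cnn1* from 28.5, 33.5 and 22.3 to 12.7 and 8.11 CPM (-1.44 ± 0.24), and *Acta2*, the myofibroblast actin, from 279.7, 287 and 324 CPM to 191 and 208 CPM (-0.57 ± 0.11). These 3 stood at 284, 188 and 1128 CPM in null lung 1, and their signs turned with all 6 libraries (1.33, 1.30 and 0.78). *Mustn1* fell as well (-1.72 ± 0.20), with 38.0 CPM in null lung 1. *Pdgfra*, the receptor that marks myofibroblast precursors, rose from 128, 120.4 and 144 to 204 and 204 CPM (0.64 ± 0.11). *Tgfbi*, a matrix protein induced by TGF-beta, fell in all 3 null lungs, from 519.8, 616 and 504 CPM to 202 and 207 CPM and 172 CPM, and was called in both fits (-1.42 ± 0.12, adjusted p = 0.000621 without null lung 1). Mesothelial markers gave 0 higher and 3 lower of 7. Mesothelin, *Msln*, fell from 503, 443 and 394 to 334 and 248 CPM (-0.62 ± 0.16), and *Upk1b* from 92.4, 58.3 and 77.9 to 38.2 and 27.7 CPM (-1.21 ± 0.22), with 284 CPM and the opposite sign when null lung 1 was included (0.61). The retinoic acid synthesis gene *Aldh1a2* passed narrowly (-0.84 ± 0.28, adjusted p = 0.0495) and lost its call in 4 of the 5 fits without 1 library.

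Elastic fibre genes were called in 11 of 21 cases (52.4%, beside 37.0% of all genes), 6 higher and 5 lower. Elastin itself did not pass, at 4631, 4493 and 3771 CPM in WT and 4579 and 3698 CPM in null lungs 2 and 3 (-0.05 ± 0.13). Of the genes of enzymes that crosslink it, *Lox* was not called lower. *Loxl1* fell from 186, 221 and 190.2 CPM to 95.9 and 97.8 CPM (-1.04 ± 0.11). *Loxl2* fell from 148, 166 and 133 CPM to 79.9 and 73.1 CPM (-0.96 ± 0.12). Null lung 1 was within the WT range for *Loxl1* and above it for *Loxl2*, at 212 and 236 CPM. The microfibril protein gene *Mfap4* rose from 1547, 1727 and 1542 to 2434 and 2366 CPM (0.58 ± 0.10). *Fbln2* (-0.86 ± 0.12) and *Mfap5* (-0.83 ± 0.18) fell, with the opposite sign when null lung 1 was included (1.15 and 2.31). Of 27 collagen genes 6 were higher and 2 lower (29.6%), also below the share of all genes. The largest rises were those of the basement membrane genes *Col15a1*, from 24.1, 31.1 and 19.6 to 74.4 and 50.3 CPM (1.33 ± 0.22), and *Col4a6* (1.27 ± 0.17), and the microfibrillar *Col6a3* (1.09 ± 0.26). All 3 were still higher in null lung 1.

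Of 33 genes of cholesterol and fatty acid synthesis 17 were lower and 7 higher, with a median of -0.54. All genes gave 19% lower and 18.0% higher. The largest falls were those of sterol genes. *Idi1*, which makes an isoprenoid building block, fell from 12.5, 21.2 and 16.7 to 4.28 and 4.80 CPM (-1.89 ± 0.25), squalene epoxidase *Sqle* from 54.7, 75.5 and 61.3 to 18.1 and 17.8 CPM (-1.83 ± 0.16) and *Msmo1*, of the later steps to cholesterol, from 39.9, 51.2 and 43.9 to 14.9 and 16.6 CPM (-1.51 ± 0.15). The largest rises were those of fatty acid genes. *Scd1*, which makes monounsaturated fatty acids, rose from 494, 397 and 400.4 CPM to 1842 and 1059 CPM (1.75 ± 0.22), its regulator *Srebf1* from 111, 102 and 97.2 to 235 and 235 CPM (1.19 ± 0.10), and *Fasn*, fatty acid synthase, from 306, 279 and 234 to 438 and 450.0 CPM (0.70 ± 0.13). Null lung 1 lay below the WT lungs for all 3, at 78.8, 60.3 and 58.7 CPM.

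Among developmental pathways, the EGF receptor family gave 7 higher and 4 lower of 23, beside 18.0% and 19% of all genes. *Egfr* rose from 46.7, 38.7 and 41.4 CPM to 98.2 and 78.7 CPM, with 77.3 CPM in null lung 1 (1.07 ± 0.13, adjusted p = 0.00161). The ligand gene *Tgfa* rose from 9.90, 10 and 11.8 to 21.9 and 21.3 CPM (1.03 ± 0.15) and the receptor *Erbb3* from 82.1, 88.2 and 75 to 167 and 172 CPM (1.05 ± 0.10). The inhibitor *Errfi1* is also in this list. The neuregulin genes *Nrg2* (-1.43 ± 0.36) and *Nrg4* (-1.32 ± 0.41) fell, and the call of the latter was lost in 4 of the 5 fits without 1 library.

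Hedgehog genes gave 1 higher and 5 lower of 16, beside 18.0% and 19% of all genes. *Shh*, the epithelial ligand, fell from 36.7, 44.6 and 44.1 CPM to 9.19 and 12.6 CPM, with 4.43 CPM in null lung 1 (-1.94 ± 0.18, adjusted p = 0.000689), and *Dhh* from 16.0, 15.3 and 15.2 to 3.84 and 6.36 CPM (-1.60 ± 0.23). The receptor and target gene *Ptch1* did not pass, at 69.6, 73.7 and 62.2 CPM in WT and 61.3 and 63.8 CPM in null lungs 2 and 3 (-0.13 ± 0.11). The co-receptor gene *Cdon* fell (-0.76 ± 0.11), with the opposite sign when null lung 1 was included (0.57), and the transcription factor gene *Gli3* rose (0.61 ± 0.12). FGF genes gave 2 higher and 3 lower of 18 (27.8%), below the share of all genes. The mesenchymal ligand genes *Fgf18* and *Fgf1* fell, from 24.1, 21.0 and 19.9 to 6.66 and 4.70 CPM (-1.93 ± 0.20) and from 101, 111 and 101 to 56.3 and 48.9 CPM (-0.99 ± 0.11), while *Fgf10*, the ligand of budding, did not pass (-0.03 ± 0.22).

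Wnt genes gave 10 higher and 9 lower of 39, beside 18.0% and 19% of all genes, with *Wnt3a* the largest fall. The agonist gene *Rspo2* fell from 4.07, 3.95 and 5.48 to 1.36 and 0.585 CPM (-2.22 ± 0.38) and the receptor gene *Fzd2* from 60.0, 60.3 and 58.3 to 25.3 and 26.3 CPM (-1.21 ± 0.10), with all 3 null lungs below the WT range. *Celsr3*, a planar polarity cadherin (1.57 ± 0.33), and the receptor *Fzd10* (1.30 ± 0.23) rose from low levels. TGF-beta and BMP genes were called in 22 of 37 cases (59.5%, beside 37.0% of all genes), 11 in each direction. The co-receptor gene *Tgfbr3* rose from 164, 129.5 and 139 CPM to 267 and 364 CPM (1.13 ± 0.16), *Smad1* rose (0.52 ± 0.10), and the BMP antagonist gene *Grem1* fell (-2.06 ± 0.58). *Grem1* was under 1 CPM in these 5 libraries and had the opposite sign when null lung 1 was included (2.15). The ligand gene *Tgfb1* did not pass (-0.05 ± 0.12).

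Macrophage and monocyte genes moved both ways, 5 higher and 4 lower of 20. Over all genes, the background of each list here, 18.0% were called higher and 19% lower. The 4 falls were larger than any rise of the list (at most 0.87), and of the 5 rises only *Lyz2* is given below. The summed level of the list, *Lyz2* included, was 3338 to 4394 CPM in the WT lungs and 4661 to 6500 CPM in null lungs 2 and 3. Of the chemokine receptor genes of monocytes, *Cx3cr1* fell from 14.0, 14.7 and 9.89 CPM to 3.84 and 1.90 CPM (-2.17 ± 0.33) and *Ccr2* from 12.4, 16.6 and 24.5 CPM to 4.78 and 8.41 CPM (-1.43 ± 0.35). *Ear2* (-1.76 ± 0.25) and the antibody receptor gene *Fcgr1* (-1.22 ± 0.23) fell too. Lysozyme, *Lyz2*, which type 2 cells also express, rose from 1614, 1256 and 1187 CPM to 2713 and 2083 CPM (0.83 ± 0.16). Neutrophil genes gave 6 higher and 1 lower of 15. *Retnlg* rose from 18.0, 25.9 and 27.3 to 73.4 and 66.1 CPM (1.56 ± 0.18), the calprotectin genes *S100a8* and *S100a9* by 0.88 and 1.02 on the log2 scale, and the granule genes *Mpo* (1.99 ± 0.37), *Elane* (1.64 ± 0.46) and *Mmp8* (1.17 ± 0.24) also rose, the first and second at levels under 6 CPM. Null lung 1 lay below the WT lungs for *Retnlg*, *S100a8*, *S100a9* and *Mmp8*. *S100a8* and *S100a9* lie 9.89 and 9.87 Mb from *Man1a2*. Interferon-stimulated genes gave 1 higher and 1 lower of 27.

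Genes of hypoxia and glycolysis were higher in 13 of 33 cases and lower in 2, with a median of 0.34. Over all genes, the background of each list here, 18.0% were called higher and 19% lower. The glucose transporter gene *Slc2a1* rose from 46.2, 46.8 and 46.5 CPM to 125 and 115 CPM (1.36 ± 0.09, adjusted p = 0.000406), hexokinase *Hk2* from 18.3, 16.4 and 15.6 to 57.0 and 32.8 CPM (1.42 ± 0.22), and *Bnip3*, of mitophagy, from 73.2, 75.2 and 73.8 to 165 and 178 CPM (1.21 ± 0.09). *Ndrg1* rose by 1.06 on the log2 scale. *Vegfa*, which is also in the type 1 list, was among the members called lower. In *Slc2a1*, *Hk2*, *Bnip3* and *Ndrg1* null lung 1 also lay above the WT range. Immediate early genes were higher in 11 of 26 cases and lower in 3: *Fosl2*, an AP-1 subunit, rose from 102, 122 and 100.4 CPM to 411 and 443 CPM (1.98 ± 0.12), *Nr4a3* rose (1.65 ± 0.35), and *Egr2* (-1.41 ± 0.34) and *Egr3* (-1.55 ± 0.30) fell. The stress gene lists were called at shares near that of all genes, 12 of 27 for the unfolded protein response and 8 of 23 for the ATF4 response. Within the first, *Herpud1*, of degradation in the endoplasmic reticulum, rose from 168, 176 and 158 CPM to 565 and 545 CPM (1.73 ± 0.10, adjusted p = 0.000319), *Dnajb9* by 0.96 and *Ppp1r15a* by 0.85 on the log2 scale.

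Cell cycle genes were called in 10 of 46 cases (21.7%), 5 higher and 5 lower, with a median log2 fold change of -0.004. Nuclear genes of the respiratory chain were called in 9 of 43 (20.9%), 5 higher and 4 lower. Both shares lie below the 37.0% of all genes, of which 18.0% were called higher and 19% lower. The largest fall of the cell cycle list was that of cyclin D1, *Ccnd1*, from 203, 165 and 189 CPM to 111 and 61.9 CPM (-1.10 ± 0.23). The largest rise of that list was 0.92. Imprinted growth genes were higher in 8 of 24 cases and lower in 1, among them *Dlk1*, from 1125, 995 and 996 CPM to 1617 and 2055 CPM (0.82 ± 0.13), and *Meg3* of the same locus (0.85 ± 0.20). Cardiac muscle genes were higher in 12 of 18 cases and lower in 1, and skeletal muscle genes higher in 7 of 15, from the low sums given above. The calcium release channel gene *Ryr2* rose from 10.1, 9.78 and 12.8 to 75.9 and 48.7 CPM and its regulator phospholamban, *Pln*, from 1.03, 2.25 and 3.25 to 9.27 and 7.19 CPM. Choice of the libraries rested on 2 members of these lists, *Nppa* and *Acta1*, and the part of muscle RNA in other results was not tested.

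**Figure D5:**
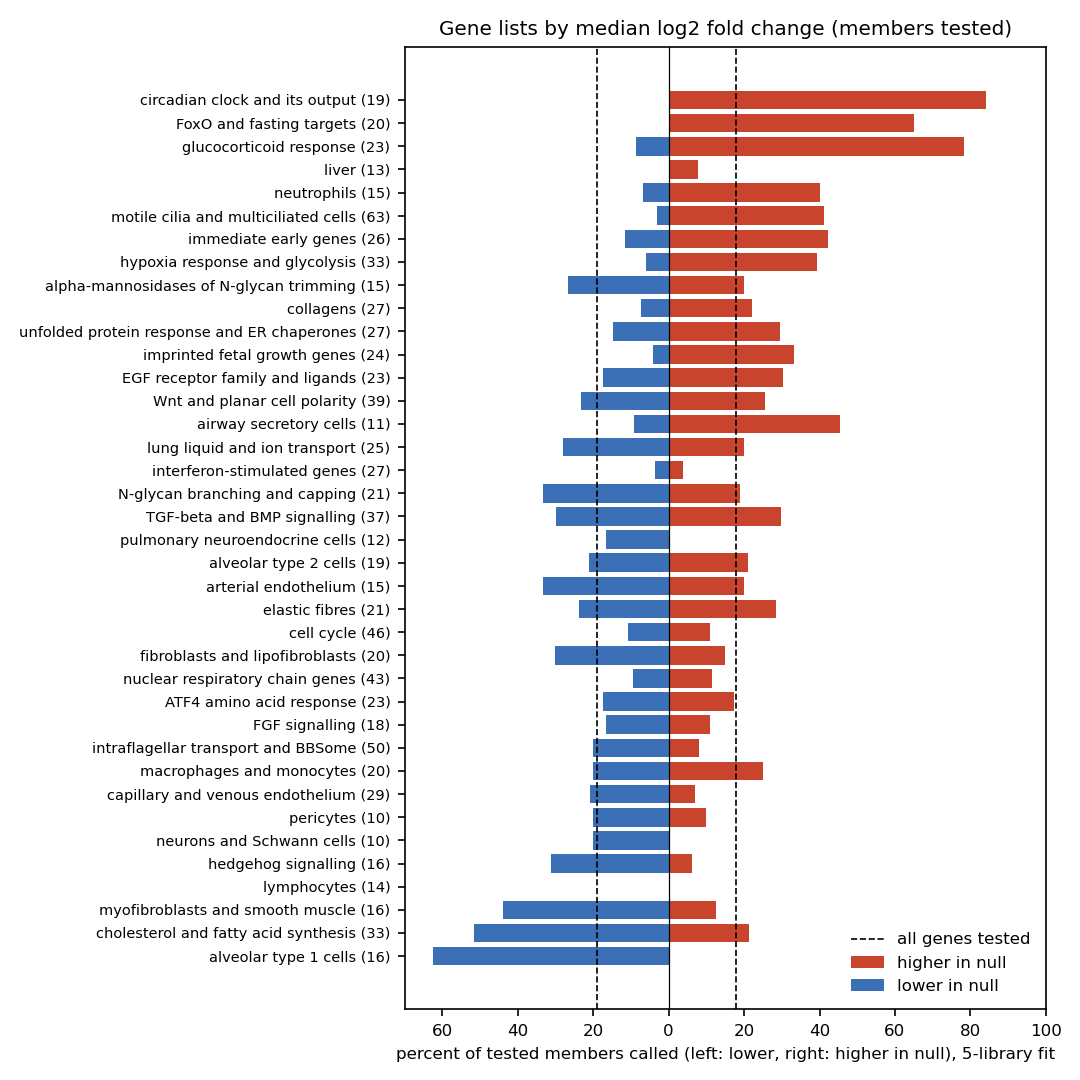
Percent of tested members called lower (left) and higher (right) in null lungs 2 and 3 against WT (x axis). Shown are gene lists with at least 10 members tested, without the cardiac and skeletal muscle lists. They are ordered by median log2 fold change, with the number tested in brackets. Dashed lines mark the shares over all genes, 19% lower and 18.0% higher. The clock list has the highest median (1.30) with 16 of 19 members called higher, and the type 1 list the lowest (-0.73) with 10 of 16 called lower.

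The genotype effect in lung was set against that in liver by an interaction term over the 11 libraries without null lung 1. The difference was called for 813 of 16257 genes (5.0%). The log2 fold change was higher in lung for 372 (2.29%) of them and lower for 441 (2.71%). Null liver 1 held skeletal muscle RNA, with markers summing to 7673 CPM against 7.60 to 11.4 CPM in the other livers, and without it 840 genes were called. Of the 33 genes of cholesterol and fatty acid synthesis, 15 had a lower and 1 a higher fold change in lung, with medians of -0.52 in lung and 0.52 in liver. Without null liver 1 the counts were 16 and 0. *Msmo1* fell in lung and rose in liver (0.72), a difference of -2.22 ± 0.20 (adjusted p = 0.00212). *Sqle* differed by -1.86 ± 0.23 and *Idi1* by -1.70 ± 0.35.

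Of the clock genes, 5 of 19 had a higher fold change in lung and 0 a lower, beside 2.29% and 2.71% of all genes. *Nr1d2* rose in both tissues, by 2.15 in lung and 1.44 in liver in this fit. Its difference was 0.71 ± 0.14 (adjusted p = 0.0216), or 0.70 (adjusted p = 0.0514) with the pup as a block. That block also sets null liver 1 aside, since null lung 1 was left out. *Hlf* rose in lung and fell in liver (-1.32), a difference of 1.84 ± 0.21, *Per2* did the same with a difference of 1.07 ± 0.19, and *Bhlhe40* differed by 1.38 ± 0.29. For *Nr1d1* the difference was not called (0.69 ± 0.34, adjusted p = 0.262). Glucocorticoid genes had 1 member with a higher and 1 with a lower change in lung, beside medians of 1.10 in lung and 1.16 in liver, and with the pup as a block 0 had a higher and 2 a lower change. Of the epithelial genes, *Rtkn2* (-1.82 ± 0.28), *Hopx* (-1.20 ± 0.21) and *Akap5* (-2.14 ± 0.35) differed. *Rtkn2* and *Akap5* were under 3 CPM in every liver library. *Tgfa* rose in lung and fell in liver (-0.58), a difference of 1.62 ± 0.21 (adjusted p = 0.00377). The difference of *Man1a2* itself was -0.45 ± 0.26 (adjusted p = 0.347) and was not called.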

How the data were processed

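Lung and liver of newborn pups were sequenced as 75 base read pairs from stranded libraries of polyadenylated RNA. The deposited files hold raw read counts for 24421 gene rows, which the authors made from reads aligned to the mouse genome. The submitters' processing notes name STAR 2.5.2a, FastQC, DESeq2 and mm10. The counting program, its annotation and its use of strand are not given in the sources used here, and 59 of 203 genes named here and found in GENCODE M21 share exon bases with a gene on the other strand. In the files, 27 gene names had been turned into dates by a spreadsheet.

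Counts were filtered with filterByExpr, scaled with TMM factors and tested with edgeR 4.0.16 (quasi-likelihood test, Benjamini-Hochberg adjustment over all genes tested) in R 4.3.3. A gene was called at an adjusted p under 0.05 and a 1.2-fold difference or more. Standard errors were taken as the log2 fold change divided by the square root of F. CPM are scaled with the same factors, except the sums over marker lists, which are scaled to total counts. The difference between lung and liver was an interaction term over 11 libraries. The fits were tested on simulated counts. DESeq2 1.42.0 and limma 3.58.1 (voom with library quality weights) were alternatives.

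Named were *Man1a2*, the 10 largest rises and falls among called genes with a mean log2 CPM of at least 1 and all 3 null lungs outside the WT range, 5 of each with a mean of at least 100 CPM, and up to 4 called members of a list with the largest changes. Unnamed gene models, date names and sex-linked genes were left out of the first 2 of these sets. Other members were named as familiar genes of their lists after their values were seen. Some genes, a few of them chosen by these rules, are not reported here. The libraries, the 50 lists (1039 different genes, some in more than 1 list, with 12 missing from the files) and the tests were chosen with earlier results of these data known. Nothing in the labels says that pups came from separate litters, so p-values measure the spread between these samples. Liver and lung of one number deviated together from their group means (r = 0.195 to 0.457 across genes for all 6 numbers). On this ground alone the number was taken to stand for the pup in a block fit. Null lung 1 was left out of the interaction, so there the block set null liver 1 aside. Null lung 1 and null liver 1 both held skeletal muscle RNA, which enters these deviations in the null group. WT and null lungs of one number did not deviate together (r = -0.0365, -0.0342 and 0.102). The 3 read floor covers counting error only.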

Additional observations from a re-analysis of the deposited data

Results flagged for a closer look

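For 32 of the 197 genes named above and tested, the genotype effect differed between lung and liver by the interaction term in edgeR (adjusted p under 0.05). Over all genes the difference was called for 813 of 16257. Most of the 197 were named for their changes in lung or after their values were seen. That choice can raise their share, so it cannot be compared with the share over all genes. Each value here is the lung effect less the liver effect on the log2 scale. Null liver 1 held skeletal muscle RNA. Without it 27 of the 32 were called and all 32 kept their sign, and with the pup as a block 26 were called. These are not separate checks. Null lung 1 was left out, so null liver 1 was the only library of its pup and the block set it aside too.

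Glycan genes gave 0.75 for *Man2a1*, -0.95 for *Mogs* and -0.84 for *Edem2*. With the block, *Man2a1* was at 0.69 (adjusted p = 0.0892). The clock genes gave 0.71 for *Nr1d2*, 1.38 for *Bhlhe40*, 0.80 for *Cry1*, 1.07 for *Per2* and 1.84 for *Hlf*, and *Nr1d2* was at 0.70 (adjusted p = 0.0514) with the block. Fasting and glucocorticoid genes gave 1.34 for *Glul*, -1.23 for *Angptl4* and 1.16 for *Klf15*, and the glucose transporter gene *Slc2a1*, of the hypoxia and glycolysis list, gave 0.88. *Glul* was at 1.24 (adjusted p = 0.0612) with the block.

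Sterol genes gave -1.70 for *Idi1*, -1.86 for *Sqle* and -2.22 for *Msmo1*. Epithelial genes gave -2.14 for *Akap5*, -1.82 for *Rtkn2*, -1.20 for *Hopx*, 4.11 for *Scgb3a1*, 2.57 for *Dnah6* and 0.96 for *Atp1b1*. With the block, *Dnah6* was at 2.42 (adjusted p = 0.0575) and *Atp1b1* at 1.01 (adjusted p = 0.0506). Vascular and mesenchymal genes gave -2.28 for *Cxcr4*, -3.96 for *Dkk2*, -1.94 for *Actg2*, -1.23 for *Tgfbi*, -1.08 for *Loxl2*, -2.71 for *Spon2*, -4.10 for *Cemip* and -1.77 for *Prkcdbp*. *Cemip* was at -3.54 (adjusted p = 0.0558) with the block. *Tgfa* gave 1.62, *Dhh* gave -2.06 and the muscle gene *Ryr2* gave 3.0. Of these genes *Scgb3a1*, *Dnah6*, *Cemip*, *Dhh* and *Ryr2* were under 1 CPM in every liver library and *Dkk2* at 0.101 to 1.82 CPM, so that a genotype effect in liver was hardly measurable for them. The genes not called without null liver 1 were *Man2a1*, *Scgb3a1*, *Cemip*, *Glul* and *Dhh*.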

How the results depend on the processing

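The 5881 calls of the 5-library comparison fell to 3457 without WT lung 3 and to 51 with null lung 1, and lay between 3457 and 5397 over the fits without 1 library. No paired analysis rests on WT and null numbers, which did not pair the samples: with the replicate block 5697 genes were called, 5093 of them shared. In that fit WT lung 1 was alone in its block and so was set aside. Upper-quartile scaling moved the median of all genes to -0.09 and the split to 2335 higher and 3672 lower. With all 6 libraries edgeR called 2 genes with DESeq2 size factors, 109 with upper-quartile factors, 210 with at least 10 counts in every library, 10 without muscle, red cell and the 20 most abundant genes, and 0 with 1 count in all or with the replicate block (3898 genes had an unadjusted p under 0.05 in the main setting). DESeq2 called 2355, a fit with the liver libraries 2284 and voom with quality weights 4980, where null lung 1 had a weight of 0.0775. Leaving out each of the 6 in turn gave 0 to 5881. The 813 calls of the difference between tissues became 1727 by DESeq2, 60 with null lung 1, 938 with the replicate block, 609 of them shared, and 301 to 855 without single libraries.

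Of 410 genes called in the lists, 270 were called in a fit with the liver libraries, 6 with null lung 1, and 264 (without WT lung 3) to 361 without single libraries. Type 1 markers had 6 and 0, cilia 18 and 0, and smooth muscle 5 and 1 calls by edgeR in the fit with liver and with null lung 1, where DESeq2 called 24 cilia genes higher and voom 26 higher and 1 lower. Without single libraries cilia had 13 to 28. With null lung 1 the clock list had 3, FoxO 2, glucocorticoid 0 and cholesterol and fatty acid synthesis 0 calls by edgeR, beside 10, 9, 10 and 10 by DESeq2. The fold change of *Man1a2* was -1.01 (adjusted p = 0.0614), and -1.09 to -0.86 without single libraries. With null lung 1 the sign turned for *Sftpa1* (-0.10), *Dkk2* (0.74), *Acta2* (0.78), *Actg2* (1.33), *Cnn1* (1.30), *Upk1b* (0.61), *Fbln2* (1.15), *Mfap5* (2.31), *Grem1* (2.15) and *Cdon* (0.57), and 158 of the named genes were no longer called. Leaving out 1 library ended 12 (WT lung 1), 16 (WT lung 2), 22 (WT lung 3), 15 (null lung 2) or 17 (null lung 3) of their calls, and 4 of the 5 such fits ended those of *Aldh1a2*, *Clock*, *Edem2*, *Hlf*, *Lcn2*, *Lpcat1*, *Man1a*, *Man1b1*, *Nrg4*, *Rgs1* and *Scnn1g*. The calls of *Dnah11*, *Elane*, *Grem1*, *Man2a1*, *Msln*, *Slc34a2* and *Tef* were each ended by 3 of those 5 fits. The cause of these changes was not tested.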
